A study of Mus musculus with 4 samples.

Results

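XN4 and XN1 are mouse lines that were started from epiblast stem cells of strain 129/Sv and are labelled as neural stem cell lines. Both were grown with EGF and FGF2 at 10 ng/ml each and with XAV939 at 10 µM, so they share every agent that the labels name. Per the study's supplement, the XAV939 of XN1 came from a first supplier and formed crystals in the medium, and that of XN4 came from another supplier and formed none. The lines were also raised in different derivation series by different experimenters, so supplier, series, experimenter and line cannot be told apart. Each line is 1 culture and 1 single-cell library, and all 8741 cells of XN4 were set against all 14452 cells of XN1. These are 23193 of the 41350 cells in the reads-per-cell tables used here. The remaining table is CN4, a line of the same strain, grown with the same growth factors and 2 µM CHIR99021 in place of XAV939. It is used to set the size of the comparison and as a reference for a few named genes.

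XAV939 blocks tankyrases, the enzymes that mark the scaffold protein Axin for breakdown. More Axin means more destruction of β-catenin, and less β-catenin leaves the TCF/LEF factors at Wnt target genes without their coactivator. In the early embryo, low Wnt signalling goes with forebrain identity and higher signalling with midbrain, hindbrain and spinal cord, each marked by its own transcription factors. Neural stem cells are known by Sox2, Nestin and the lipid carrier Fabp7. Connective tissue cells are known by fibrillar collagens and small proteoglycans.

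In each cell, the reads of a gene were divided by all reads of the cell and multiplied by 10000, with mitochondrial and ribosomal protein genes kept. The level of a gene is the mean of this value over the cells of a line. With 1 library a line there is no replicate error and no test, so every fold below describes these libraries. A gene was counted when its mean level over both lines was at least 0.1, and called higher or lower from 2-fold. A gene near 0 in 1 line could thus be counted only through the other, and then only with a call. Counts of list members below describe the lists and test nothing. Intervals on shares of cells are exact Clopper-Pearson 95% intervals and those on sums of reads are exact Poisson intervals. Both cover counting error only, and reads that are copies of 1 molecule make them too narrow.

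The libraries differed in quality as well as in genes. XN4 cells had a median of 12615 reads and 2665 genes, and XN1 cells 5982 reads and 2379 genes. Mitochondrial reads made up a median of 26.0% of a XN4 cell, with a 5th to 95th percentile range of 9.19% to 56.0%, against 14.7% (9.65% to 24.8%) in XN1. All 13 mitochondrial genes counted had a higher level in XN4, by a median of 0.82 on the log2 scale. The 81 ribosomal protein genes had a median log2 ratio of 0.01. XN4 and XN1 shared 139 cell barcodes, which are 1.59% of XN4 and 0.962% of XN1. These cells followed their own line: Col3a1 was read in 134 of the 139 in XN4 and in 1 of the 139 in XN1.

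**Figure D1:**
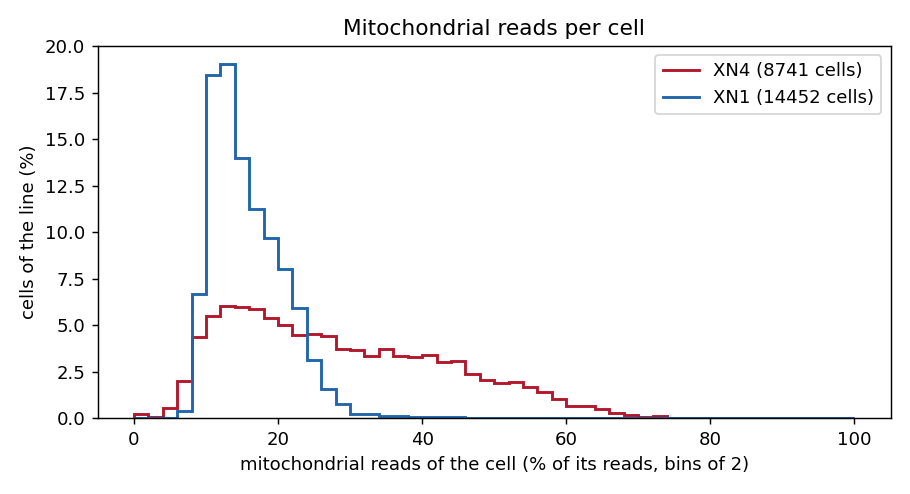
Share of mitochondrial reads per cell (horizontal axis, percent of the cell's reads) against the share of the line's cells (vertical axis, percent) in bins of 2 percentage points, for XN4 and XN1. XN1 forms a narrow peak around its median of 14.7%, and XN4 spreads out to a 95th percentile of 56.0%.

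Of 9387 genes counted, 1139 (12.1%) were at least 2-fold higher in XN4, 1678 (17.9%) were at least 2-fold lower in XN4, and 6570 (70.0%) lay within 2-fold. The median log2 ratio of XN4 over XN1 over all counted genes was -0.21, so a level that is equal by this scale sits slightly above the middle of the genes. Past 8-fold, 300 genes were higher and 431 lower in XN4. Which direction held more genes depended on the scaling and on the cells used. XN4-high genes were 40.4% of the calls, 45.3% with reads pooled over the cells, 52.2% after centring on the median, 57.0% with mitochondrial and ribosomal protein genes left out of the totals, and 51.7% among cells with at most 20% mitochondrial reads. In none of these did a called gene turn to a call in the opposite direction.

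The gap between the XAV939 lines can be set beside their gaps to the CHIR99021 line, with the caution that these comparisons share libraries. XN4 against CN4 gave 12.9% of genes higher and 21.1% lower in XN4. XN1 against CN4 gave 7.33% higher and 6.36% lower in XN1. The genes within 2-fold were 70.0% for XN4 against XN1, 66.1% for XN4 against CN4 and 86.3% for XN1 against CN4. CN4 cells had a median of 9173 reads and of 14.7% mitochondrial reads, the same median share as XN1 and below the 26.0% of XN4. Per the supplement, CN4 shares its derivation series and experimenter with XN4. The comparisons with CN4 were not repeated in cells with few mitochondrial reads, so the part of library quality in these gaps was not tested. CHIR99021 blocks the kinase GSK3 and so raises β-catenin, the reverse of what XAV939 does.

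**Figure D2:**
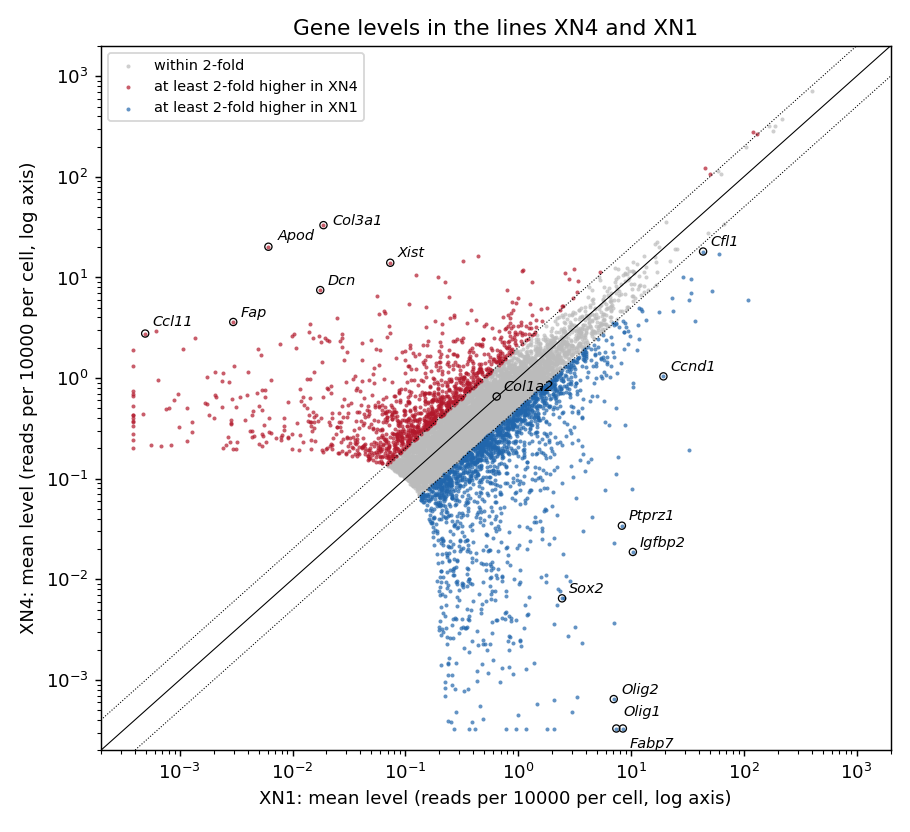
Mean level of each of the 9387 counted genes in XN1 (horizontal, log axis) and XN4 (vertical, log axis), in reads per 10000 per cell, with dotted lines at 2-fold. A line with fewer than 3 reads of a gene is drawn at the level of 3 reads. Col3a1, Apod and Ccl11 lie far above the diagonal, Fabp7 and Olig1 lie at the floor of XN4, and Col1a2 lies on the diagonal.

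The genes that set XN4 apart were those of connective tissue. Col3a1, the chain of type III collagen (GRCm38 chr1:45311538-45349706, plus strand), had a level of 33.1 in XN4 and 0.0188 in XN1, 1759-fold apart. It was read in 97.7% of XN4 cells (97.4 to 98) and in 0.228% of XN1 cells (0.157 to 0.321). The same counts in reads were 534916 (533483 to 536351) and 111 (91.3 to 134). A read was thus found in nearly every XN4 cell and in few XN1 cells, which also had fewer reads per cell. After thinning to 3600 reads the shares were 95.2% and 0.143%.

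The other genes of largest fold on the XN4 side were of a like kind. Apod, a secreted lipid carrier, stood at 20.2 and 0.00611, and Ccl11, the chemokine eotaxin, at 2.77 and 0.000494. Fap, a surface protease of fibroblasts, stood at 3.61 and 0.00298. The 15 genes of largest fold also took in the proteoglycan Dcn (7.49 and 0.0176), the collagen chains Col1a1, Col6a3 and Col15a1, the laminin chain Lama2, the mesenchymal cadherin Cdh11 and the globin Cygb, all at least 164-fold higher in XN4. Hpca, a neuronal calcium sensor, was among them at 2.48 and 0.00137, a member that does not belong to connective tissue by name. Zim1, an imprinted zinc finger gene, stood at 2.01 and 0.0107. Xist is described below.

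Of the 20 connective tissue markers listed, 18 were counted. Of these, 16 were higher in XN4, 1 was lower and 1 lay within 2-fold, beside 12.1%, 17.9% and 70.0% of all genes. The list was chosen with earlier results of these data known, and members such as Fap, Pdgfrb and Twist2 were counted through XN4 alone. The count is therefore a description and no independent support. Their median log2 ratio was 6.03. The subunits of type VI collagen Col6a1 (14.5 and 0.324) and Col6a2 (10.5 and 0.125) and the secreted Fstl1 (11.1 and 2.58) were read in 89.9% to 96.4% of XN4 cells. The transcription factors Prrx1 (5.40 and 0.107), Twist1 (0.303 and 0.0594) and Twist2 (0.233 and 0.0124) were higher too, as was the receptor Pdgfrb (0.515 and 0.00236). The list was not uniform. The surface protein Thy1 was lower in XN4, at 0.00375 and 0.581. Mfap5 and Loxl1 were read in 0.103% and 1.32% of XN4 cells.

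The chains of type I collagen parted from each other. Col1a1 had a level of 2.16 in XN4 and 0.00777 in XN1, 278-fold apart, while its partner Col1a2 stood at 0.656 and 0.645. Col1a2 was read in fewer XN4 cells (6.72%, 6.20 to 7.26) than XN1 cells (24.0%, 23.3 to 24.7), so its equal mean in XN4 came from few cells with many reads. In the 2055 XN4 cells with a Col1a1 read, Col3a1 was read in 99.7%, against 97.1% of the other XN4 cells. The cells with a Col1a1 read had a median of 16608 reads and the others 11387.

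Markers of cell types close to connective tissue were mixed. The contractile genes Acta2, Tagln and Cnn1 were read in 1.41%, 0.240% and 0.0229% of XN4 cells, while the tropomyosins Tpm1 (4.43 and 0.861) and Tpm2 (0.535 and 0.0621) were higher in XN4. Of 9 meningeal markers, Foxc1 (1.23 and 0.561), Tbx18 (0.731 and 0.0886) and Col15a1 (3.41 and 0.0144) were higher and Ptgds (0.000968 and 0.429) lower, 3 and 1 of 4 counted, beside 12.1% and 17.9% of all genes. Foxc1 came within 2-fold with dividing cells left out. Emcn, an endothelial sialomucin, was at 2.24 and 0.0415, yet Pecam1 and Cdh5 were read in 0.767% and 1.74% of XN4 cells. No epithelial, myeloid, epiblast or early mesoderm marker reached the level to be counted. Over the 30 genes of those 4 lists the median share of cells with a read was 0.143% in XN4 and 0.0381% in XN1, which gives a rough background for the shares printed here. The highest was Foxf1 in XN4, at 6.38%, and whether XN4 truly expresses it was not tested. Reads per cell differ between the lines, so each share is set beside the background of its own line.

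Genes of neural stem cells went the other way, and in this library most of them do not match the label of XN4. For the line itself, the paper reports differentiation into neurons, oligodendrocytes and astrocytes. Its microarrays put Sox2 and Zeb2 at significant levels in XN4, with Sox3 and Pax6 low. They had Sox3 or Sox1 strongly expressed in each line, with Sox1 low in XN1. By RT-qPCR, Sox1 was activated in the culture that gave XN4. What lies behind the difference between those data and this library was not tested. Sox2, the transcription factor that defines neural stem cells (GRCm38 chr3:34650405-34652461, plus strand), had a level of 0.00647 in XN4 and 2.45 in XN1, 379-fold apart. It was read in 0.561% of XN4 cells (0.415 to 0.740) and in 63.5% of XN1 cells (62.7 to 64.3). After each cell was thinned to 3600 reads, leaving 8587 and 12594 cells, the shares were 0.151% and 50.8%. Of the 49 XN4 cells with a Sox2 read, Col3a1 was read in 95.9% (86.0 to 99.5), against 97.7% of the other XN4 cells. Ckb, the brain creatine kinase, was read in 34.7% of them (21.7 to 49.6) and in 14.9% of the others. Their median was 18641 reads, against 12566 in the others. Sox2 lies inside the longer transcript Sox2ot on the same strand, and introns were counted, so some reads of the pair may be exchanged.

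Fabp7 had no read in XN4. By a limit of 3 cells for a count of 0, this allows a read in up to 0.0343% of cells, and it does not limit the share of cells that express the gene. Fabp7 was read in 85.5% of XN1 cells at a level of 8.48. Against a floor of 3 reads this is at least 25782-fold lower in XN4. Olig1, a glial lineage factor, was likewise without a read in XN4 and was read in 89.1% of XN1 cells at a level of 7.42, at least 22533-fold lower. Olig2, its neighbour and relative, had 5 reads in XN4 and 64995 in XN1. Hes5, a Notch-driven repressor of differentiation, had no read in XN4 and was read in 3.45% of XN1 cells.

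Of 14 neural progenitor markers, 11 were counted, of which 9 were lower in XN4, 1 was higher and 1 lay within 2-fold (median log2 ratio -6.34), beside 17.9% of all genes lower and 12.1% higher. Members such as Fabp7, Sox3 and Sox2 were counted through XN1 alone, which fixed their call. As for the connective tissue list, the count is a description and no independent support. Pax6 (0.00339 and 0.354), Sox21 (0.00773 and 0.626) and Nes (0.133 and 2.97) were lower in XN4. Sox3 had 1 read in XN4 and 7062 in XN1. Sox9 was lower by less, at 1.15 and 4.19, and Msi1, an RNA-binding protein, at 0.248 and 0.587. Msi1 came within 2-fold with mitochondrial and ribosomal protein genes left out of the totals. The surface protein Prom1 lay within 2-fold at 0.138 and 0.189, and the repressor Zeb2 was higher in XN4, at 1.88 and 0.872. Sox1 was read in 0.0458% and 0.0277% of cells, which is below the background shares given above in XN4 and XN1 alike. For XN4 this differs from the paper's Sox1 data given above.

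Radial glia and astrocyte markers had 10 of 12 members counted, with 8 lower and 1 higher in XN4 (median log2 ratio -4.77), beside 17.9% and 12.1% of all genes. Here too, members such as Ptprz1 and Aldoc were counted through XN1 alone. Ptprz1, a receptor phosphatase of radial glia, was at 0.0341 and 8.31, the glutamate transporter Slc1a3 at 0.508 and 7.38, and Aldoc, the brain aldolase, at 0.00248 and 1.04. The gap junction gene Gja1 was higher in XN4, at 1.78 and 0.721. The remaining genes of largest fold on the XN1 side belong to no single list. They were the glial membrane protein Mlc1 (0.000270 and 2.06), the brain proteoglycan Bcan (0.000669 and 3.34), the endothelin receptor Ednrb (0.000626 and 2.06), the neuronal membrane protein Gpm6a (0.00371 and 7.09), the neural factor Pou3f1 (0.00235 and 3.70), the growth factor binder Igfbp2 (0.0187 and 10.4), the kinase Camk2b, the cadherin Cdh4 and the factor Rfx4. Exph5 and Clic5 completed the 15 genes.

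The reads of both lists were also summed in each cell. In cells thinned to 3600 reads, the connective tissue list summed to a median of 31 reads in XN4 (5th to 95th percentile 8 to 78) and 2 in XN1 (0 to 6). The neural progenitor list summed to 1 (0 to 5) in XN4 and 7 (2 to 16) in XN1. A thinned XN4 cell held reads of a median of 8 connective tissue genes, and a XN1 cell of 1. The connective sum was above the neural sum in 99.1% of XN4 cells (98.9 to 99.3) and in 5.53% of XN1 cells (5.14 to 5.95). The neural sum was above the connective sum in 0.641% of XN4 cells and 90.6% of XN1 cells. Sums over lists of different genes depend on the genes chosen, so only the gap between lines is read here.

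**Figure D3:**
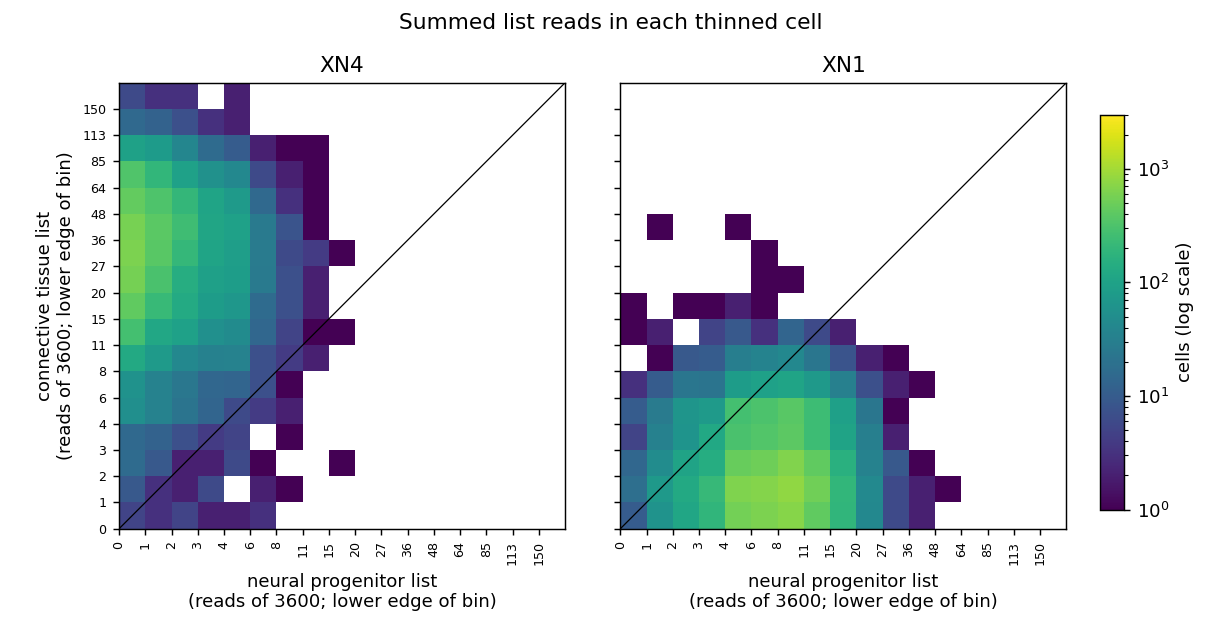
Cells thinned to 3600 reads, placed by their summed reads of the neural progenitor list (horizontal) and of the connective tissue list (vertical), in unequal bins marked by their lower edge, with the number of cells in colour on a log scale. XN4 cells lie above the diagonal of equal sums in 99.1% of cells, and XN1 cells in 5.53%.

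The share of mitochondrial reads differs between the lines, so the same values are given for cells with at most 20% mitochondrial reads, 3148 in XN4 and 11497 in XN1. Mitochondrial reads are part of each total, so this limit by itself raises the levels of other genes, more so in XN4. How much of the changes below this makes was not tested. There the connective tissue list had a summed level of 142 in XN4, against 98.5 in all cells, and 5.65 in XN1, against 5.58. The neural progenitor list had 3.92 in XN4, against 3.58 in all cells, and 22.8 in XN1, against 22.0. On the log2 scale Col3a1 was at 11.24 in these cells and 10.78 in all, Fap at 10.17 and 10.24, Sox2 at -7.96 and -8.56, and Ptprz1 at -7.80 and -7.93. Col1a1 moved further, from 8.12 in all cells to 9.09, and Ccnd1 from -4.22 to -3.53. These genes kept their direction in cells with few mitochondrial reads, while the size of the gap moved.

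The Wnt pathway is the one the agent acts on. Its targets and feedback genes are read as a gauge of signalling, and Axin2, which codes for a scaffold of the β-catenin destruction complex, is the most used of them. Sp5 and Axin2 are shown by the bases before their start, as examples of a target with and without TCF/LEF letters there. The searched letters were CTTTGAA or CTTTGAT and also CTTTGTA or CTTTGTT, on both strands. They differ only in their last letters, and matches are in capitals. Sequences are the 250 bases before the start from RefSeq, build GRCm38.p6, 5′ to 3′ on the plus strand.
Sp5, chr2:70474673-70474922: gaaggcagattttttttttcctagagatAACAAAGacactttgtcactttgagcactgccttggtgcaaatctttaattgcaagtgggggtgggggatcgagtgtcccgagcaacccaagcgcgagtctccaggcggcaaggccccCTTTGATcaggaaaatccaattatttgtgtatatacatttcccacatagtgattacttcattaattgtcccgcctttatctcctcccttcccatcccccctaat
Axin2, chr11:108920099-108920348: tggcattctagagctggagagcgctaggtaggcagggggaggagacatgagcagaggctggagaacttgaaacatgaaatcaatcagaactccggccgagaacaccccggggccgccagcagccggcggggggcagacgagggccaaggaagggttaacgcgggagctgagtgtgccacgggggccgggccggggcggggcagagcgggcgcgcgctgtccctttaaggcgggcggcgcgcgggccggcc
Sp5 holds CTTTGAT and, at another place, AACAAAG, which reads as CTTTGTT on the other strand, while Axin2 holds none of them in this window. Of 15 genes in the list, 8 had a promoter in the table and 2 of these held a match in the window of at least 1 start. Counted by promoter, 2 of 13 (15.4%) held a match, near the 14.8% of all 32851 promoters of that length in the table.

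Only 3 of the 15 targets were counted, and 2 of these were lower in XN4, beside 17.9% of all genes. This is too few to describe the list. Axin2, which was under that level, was at a level of 0.0175 in XN4 and 0.166 in XN1. It was read in 1.5% (1.25 to 1.78) and 8.02% (7.58 to 8.47) of cells, and in 0.454% and 4.84% after thinning. In reads this was 273 (242 to 307) and 1484 (1409 to 1561). In CN4, given CHIR99021, Axin2 was read in 38.8% of cells. Sp5, a target that represses others, was at 0.0203 and 0.0765, and the feedback inhibitor Nkd1 at 0.0243 and 0.0996. The TCF/LEF factors Lef1 (0.00583 and 0.112) and Tcf7 (0.0110 and 0.185) and the receptor Lgr5 (0.00325 and 0.0478) showed the same order. All these genes were too low to be counted among the 9387.

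The counted targets were Ccnd1, Myc and Znrf3. The cyclin Ccnd1 was at 1.04 and 19.4, 18.6-fold lower in XN4, and Myc, a transcription factor of cell growth, at 0.0711 and 0.690. Both are also controlled by growth factor signalling. Znrf3, which removes Wnt receptors, lay within 2-fold at 0.245 and 0.318. Nkd2 went the other way, at 0.0404 and 0.0159. Since 9 of 11 and 8 of 10 counted members of the neural progenitor and radial glia lists were also lower in XN4, their part in the order of these targets was not tested.

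All 12 cytoplasmic and nuclear members of the pathway were counted, and 9 lay within 2-fold (median log2 ratio 0.10), a share near the 70.0% of all genes. The targets of XAV939 were among the 9, with Tnks at 0.733 and 0.823 and Tnks2 at 2.21 and 1.95. So were Axin1 (0.397 and 0.286), the kinase Gsk3b (2.25 and 3.88) and β-catenin itself, Ctnnb1 (4.79 and 6.62). The scaffold Apc was lower in XN4, at 0.806 and 2.39. The repressive TCF factor Tcf7l1 (1.38 and 0.448) and Btrc (0.790 and 0.299), which tags β-catenin for breakdown, were higher.

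Ligands, receptors and secreted inhibitors act upstream of these members. All 3 ligands counted of 17 were lower in XN4, beside 17.9% of all genes: Wnt5a (0.160 and 1.77), Wnt5b (0.0973 and 0.304) and Wnt7b (0.00142 and 0.207). Wnt5b and Wnt7b were under the counting level of 0.1 in XN4, so they were counted through XN1. Of 12 receptors counted, 4 were higher and 2 lower in XN4, beside 12.1% and 17.9% of all genes. Fzd9 was at 0.00325 and 1.13 and Fzd3 at 0.245 and 1.88, while the Wnt5a receptor Ror1 was at 1.13 and 0.150. The coreceptors Lrp5 and Lrp6 stood just past the limit, each with a log2 ratio of 1.02. In the list of secreted inhibitors, Sfrp1 (0.765 and 0.00568) and Dkk3 (0.363 and 0.0144) were higher in XN4, beside 12.1% of all genes. Whether Dkk3 inhibits Wnt signalling in these cells was not tested. Sfrp1 and Dkk3 were the only members counted of 8, and both were counted through XN4.

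Region genes of the neural tube differed between the lines by gene. Of the 16 forebrain and midbrain factors listed, 4 were counted. Otx1 and Otx2 were lower and Nr2f1 and Nr2f2 higher in XN4, beside 17.9% and 12.1% of all genes. The summed level of that list was 5.89 in XN4 and 2.11 in XN1. In XN4 nearly all of the sum came from Nr2f1 and Nr2f2, whose levels are given below, so it does not stand for the list. The median log2 ratio of the 4 counted members was -1.79. The forebrain and midbrain factor Otx2 was read in 10.1% of XN1 cells (9.58 to 10.6) and in 0.378% of XN4 cells (0.260 to 0.530), and its relative Otx1 in 14.9% and 0.629%. The midbrain-hindbrain factors En1 and En2 were read in 24.3% and 18.5% of XN1 cells and in 0.881% and 0.721% of XN4 cells. Of the Hoxa genes, Hoxa5 was read in 27.8% of XN1 cells (27.1 to 28.5) and in 0.400% of XN4 cells (0.279 to 0.556), Hoxa3 in 12% and 0.0343%, and Hoxa4 in 10.3% and 0.126%. The ventral factor Nkx2-2 was read in 12.5% and 0.0572%. Otx1, Otx2, En1, En2, Nkx2-2 and these Hoxa genes were each read in under 1% of XN4 cells.

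Genes of the Hoxb and Hoxc clusters were near 0 in both lines. Hoxb4 was read in 0.0572% and 0.0277% of cells and Hoxc8 in 0.0801% and 0.0277%, where CN4 had 25.3% and 47.9%. Of the 13 Hoxc and Hoxd genes listed, only Hoxd8 was counted. Hoxd8 (GRCm38 chr2:74704615-74707933, plus strand) was read in 18.8% of XN4 cells (18 to 19.6) and in 0.0208% of XN1 cells (0.00428 to 0.0607), with 4052 and 4 reads. Its neighbours Hoxd4 and Hoxd9 were read in 1.19% and 1.06% of XN4 cells, and Hoxd4 had no read in XN1, which allows up to 0.0208% of cells. Shares near 1% are above the median background share of 0.143% in XN4, where 4 of the 30 background genes were over 1%. Of the intermediate neural tube list, Irx3 (0.612 and 0.492) and Irx5 (0.391 and 0.441) lay within 2-fold. The nuclear receptors Nr2f1 and Nr2f2 of the forebrain and midbrain list stood at 1.88 and 0.653 and at 3.95 and 0.845.

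**Figure D4:**
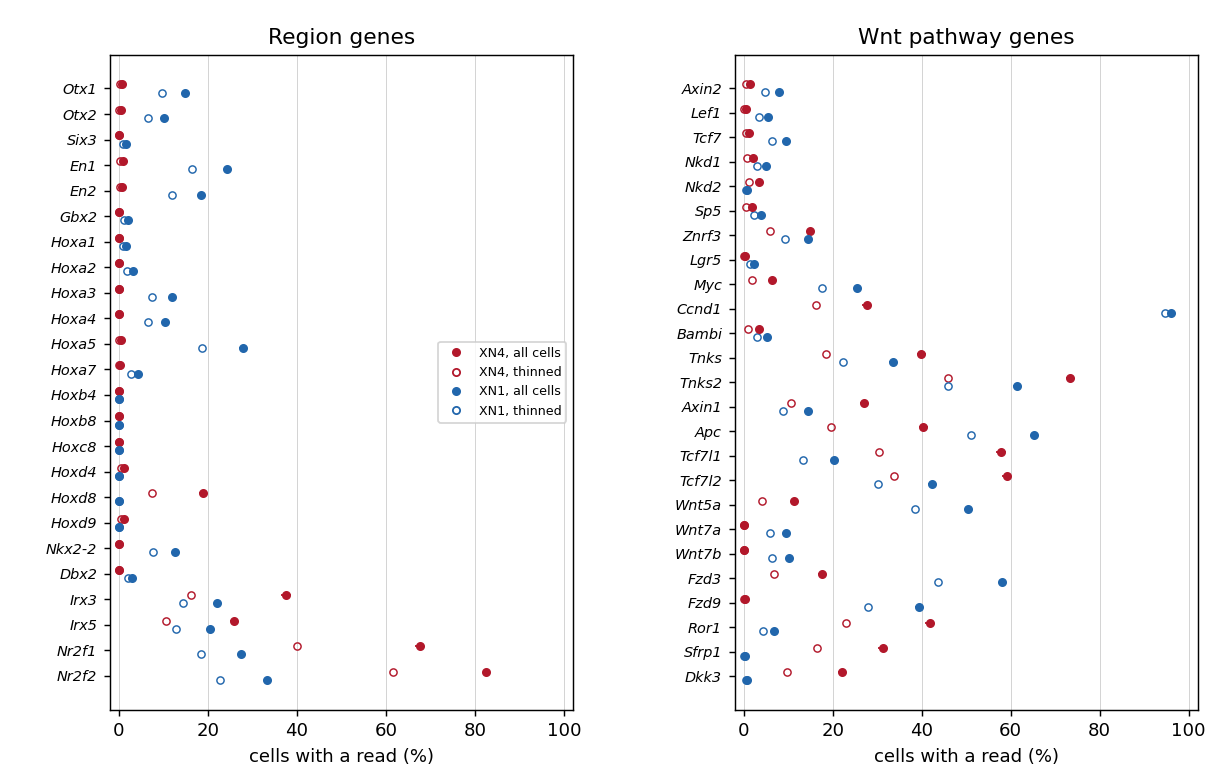
Share of cells with at least 1 read (percent) for region genes (left) and Wnt pathway genes (right) in XN4 and XN1, for all cells (filled points, bars are 95% Clopper-Pearson intervals, mostly hidden by the points) and after thinning to 3600 reads (open points). Region genes from Otx1 to Dbx2 are near 0 in XN4 apart from Hoxd8 at 18.8%, and the Wnt targets from Axin2 to Sp5 are under 10% in both lines.

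Both lines were fed EGF and FGF2, and their response genes and receptors were compared. Of 11 counted, 6 were lower in XN4, none was higher and 5 lay within 2-fold (median log2 ratio -1.02), beside 17.9% of all genes lower. Etv1, 1 of the 6, came within 2-fold after centring and in cells with at most 20% mitochondrial reads. The transcription factor Etv5, a direct readout of FGF signalling, was at 0.340 and 8.85, the phosphatase Dusp6 at 1.13 and 7.56 and the feedback inhibitor Spry4 at 1.63 and 7.14. Of the receptors, Fgfr1 was at 1.67 and 1.80 and Egfr at 0.586 and 1.19, a log2 ratio of -1.02 that came within 2-fold under other scalings. In the Notch list, Notch1 (0.363 and 1.76) and Hes1 (0.507 and 1.29) were lower in XN4 and 4 of 6 counted members lay within 2-fold, near the share of 70.0% over all genes. Hes1 came within 2-fold in cells with at most 20% mitochondrial reads. In the Hedgehog list Gli3 (1.73 and 0.264) was higher and the receptor Ptch1 (0.0974 and 0.621) and coreceptor Gas1 (1.03 and 6.53) were lower. Of the BMP and TGF-beta list, 7 of 10 counted members lay within 2-fold, the same share as over all genes. The coreceptor Tgfbr3 was higher (2.36 and 0.159), and the response gene Id2 lower (0.105 and 1.57).

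Adhesion and matrix genes, by which cells hold to each other and to the dish, also separated the lines. Of 9 counted integrins, 5 were lower and 1 higher in XN4, beside 17.9% and 12.1% of all genes. Itga6, a laminin receptor chain, was at 0.159 and 1.09, Itgb8 at 0.130 and 1.21, and the common β chain Itgb1 at 4.69 and 12.5. Itgb1 was at -1.42 on the log2 scale in all cells and at -0.86 in cells with at most 20% mitochondrial reads. Among laminins, fibronectin and nidogens, 6 of 9 counted members were higher in XN4, beside 12.1% of all genes, led by Lama2 (2.89 and 0.0139), Lama4 (1.43 and 0.0183) and Nid1 (11.7 and 1.08), and Lama5 was lower (0.00461 and 0.473). Of 9 cadherins and neural adhesion genes, 8 were lower in XN4, beside 17.9% of all genes, among them Ncam1 (0.0648 and 3.27) and Cdh2 (0.122 and 2.06), and Cdh11 was higher (2.72 and 0.0104). Of 6 counted YAP targets, 3 were higher and 1 lower in XN4, beside 12.1% and 17.9% of all genes. Cyr61 (1.74 and 0.133), Amotl2 (1.5 and 0.148) and Axl were higher and Ctgf (0.141 and 0.749) lower. Lats2 and Crim1 lay within 2-fold.

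Reads of dividing cells were found in both lines. All 12 genes of the G2-M list lay within 2-fold, with a median log2 ratio of -0.68, and 7 of 11 S phase genes did, near the 70.0% of all genes. Of the other 4, all lower in XN4, Mcm3, Pcna and Uhrf1 came within 2-fold after centring and in cells with at most 20% mitochondrial reads. The summed level of the G2-M list was 9.88 in XN4 and 15 in XN1. A read of Mki67 or Top2a was held by 38.9% of XN4 cells (37.9 to 39.9) and 38.9% of XN1 cells (38.1 to 39.7). After thinning to 3600 reads the shares were 27.7% (26.8 to 28.7) and 34.6% (33.7 to 35.4). Thinning matched all reads of a cell, mitochondrial ones included, so the depth left for other genes was lower in XN4, and it dropped 154 XN4 and 1858 XN1 cells. The D cyclins were not alike. Ccnd1 was given above, Ccnd2 was at 0.890 and 10.5, and Ccnd3 at 1.63 and 0.668, the reverse order. The CDK inhibitors Cdkn1a (1.03 and 4.04) and Cdkn2a (0.432 and 1.21) were lower in XN4 and Cdkn1c (0.280 and 0.0676) higher. Cdkn2a came within 2-fold in cells with at most 20% mitochondrial reads.

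**Figure D5:**
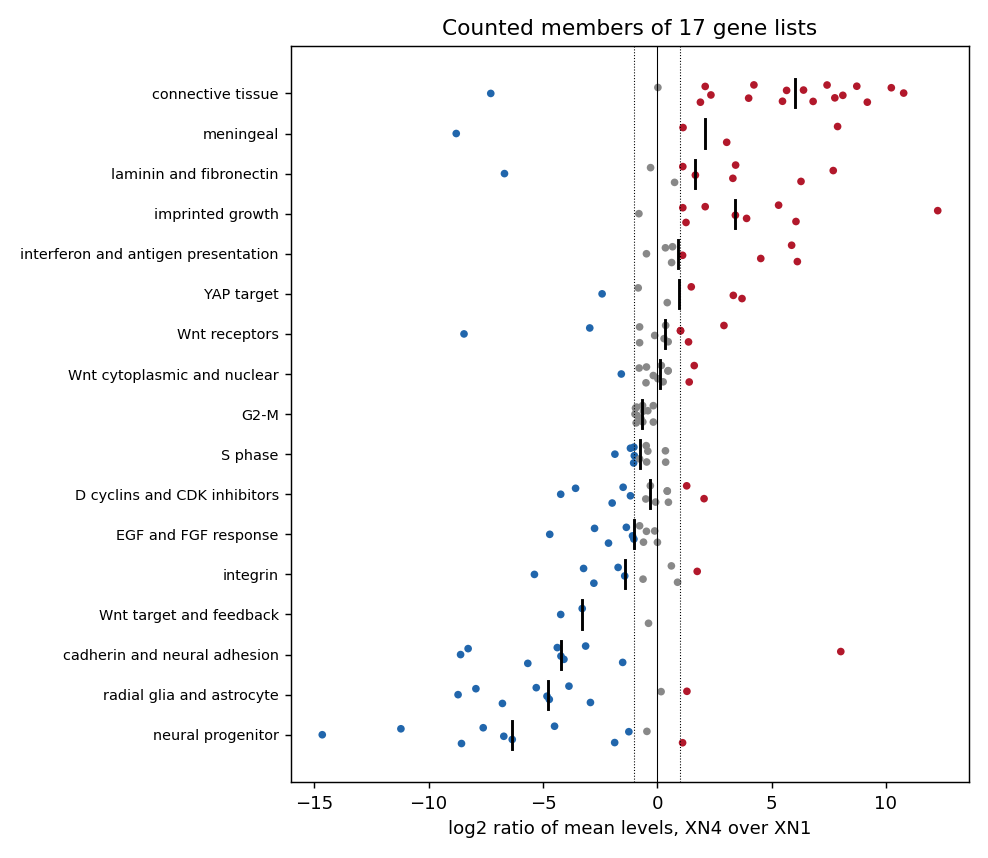
Log2 ratio of mean levels, XN4 over XN1 (horizontal), for each counted member of 17 gene lists (rows), with the median of each list as a black bar, dotted lines at 2-fold, red points for members at least 2-fold higher and blue for members at least 2-fold lower in XN4. Connective tissue has a median of 6.03 and neural progenitor of -6.34, while the G2-M list stays within 2-fold.

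Several further groups held genes that differed between the lines. Xist, the RNA that coats an inactive X chromosome, was at 14.0 in XN4 and 0.0735 in XN1, and was read in 95.6% and 1.38% of cells. It was read in 95.4% of CN4 cells. The Y-linked genes Eif2s3y, Kdm5d and Uty were read in at most 0.480% of cells of either line. Xist overlaps its antisense gene Tsix, and whether the counting used strand is not given in the sources used here. Of 9 imprinted growth genes counted, 8 were higher in XN4 (median log2 ratio 3.42), beside 12.1% of all genes. Peg10, 1 of the 8, came within 2-fold with dividing cells left out. H19 was at 1.90 in XN4 with no read in XN1, Plagl1 at 11.9 and 1.11, Dlk1 at 4.41 and 0.0656, and Peg3 at 5.48 and 1.28. H19 was read in 15.3% of XN4 cells and Plagl1 in 87.1%. Of 8 counted interferon and antigen presentation genes, 4 were higher in XN4 and 4 lay within 2-fold, beside 12.1% and 70.0% of all genes. The interferon-induced Ifit1 (0.296 and 0.00423), Ifit3 (0.334 and 0.0145) and Isg15 (0.257 and 0.00438) were among the higher. B2m, the light chain of class I molecules, lay within 2-fold at 3.05 and 2.38. The fetal growth genes Hmga2 (1.09 and 0.213) and Igf2bp2 (0.457 and 0.0389) were higher in XN4, beside 12.1% of all genes. They are 2 of only 3 counted developmental timing genes, and Igf2bp3 lay within 2-fold.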

How the data were processed

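Single-cell RNA-seq libraries of polyA RNA were made on the BD Rhapsody system, 1 per line. Per the file headers, the authors used the BD Rhapsody WTA Analysis Pipeline 1.12.1 with GRCm38 and GENCODE M19, counted intronic reads and kept refined putative cells. The deposited reads-per-cell tables hold raw counts of reads per gene and cell, not molecules. The authors also deposited natural log normalized tables from Seurat 4.3.0, of which only the cell names were used, in an alternative. All cells were kept, and no doublets were called or removed. From the counts, levels per 10000 reads, folds and shares were computed with Python 3.11.15, NumPy 2.4.6 and SciPy 1.17.1, and drawn with Matplotlib 3.10.9. Calculations were tested on simulated data. For its fold, a gene with fewer than 3 reads in a line was set there to the level of 3 reads. Thinning drew 3600 reads a cell at random. Genes were named if they were among the 15 largest folds in a direction at a mean level of at least 1, leaving out Gm and Rik clones, pseudogenes, mitochondrial and ribosomal protein genes, or if they were list members or region genes. The comparison and the lists were chosen with earlier results of these data known. Positions are from GENCODE M21 on GRCm38. Some items are not reported here.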

Additional observations from a re-analysis of the deposited data

How the results depend on the processing

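With 1 library a line, no alternative measures the spread between cultures. The 1139 genes higher in XN4 became 1825 with mitochondrial and ribosomal protein genes left out of the totals, 4904 with no filter on the level, 201 at a mean level of at least 1, 508 at 4-fold and 1828 at 1.5-fold. The 1678 lower genes became 4570, 368, 655 and 2943 under the last 4 of these. Other settings kept both counts within 1.5 times. Restricting cells to at most 20% mitochondrial reads and leaving out shared barcodes were chosen after seeing the data. The first gave 1247 higher and 1164 lower genes, and 12 of 166 called genes that were named or listed came under 2-fold, among them Egfr, Hes1, Itgb1 and Cdkn2a. No called gene was called in the opposite direction under any setting. The share of cells with Col3a1 was 95.7% (at least 2 reads) and 95.2% (thinned) in XN4, and 0.0761%, 0.143% and, in cells of the normalized tables, 0.154% in XN1. For Sox2 it was 0.263% and 0.151% in XN4, and 39.4%, 50.8% and 62.2% in XN1. The connective sum was above the neural sum in 99.4% of XN4 and 4.81% of XN1 cells without mitochondrial and ribosomal protein genes in the totals. The causes of these shifts beyond fewer reads, cells or genes were not tested. No paired analysis was possible because each line is 1 library and no test was run.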

Other observations

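Of 8 counted immediate early and stress genes, 3 were higher and 2 lower in XN4, beside 12.1% and 17.9% of all genes. Fos, Junb and Ddit3 lay within 2-fold. Egr1, an early growth response factor, had a level of 4.96 in XN4 and 1.79 in XN1, Fosb 0.277 and 0.0861, and the heat shock gene Hspa1b 0.244 and 0.0355. Jun (0.410 and 1.47) and Gadd45a (0.452 and 1.51) were lower in XN4. Of 10 neural crest markers, 4 were counted and 3 were higher in XN4, beside 12.1% of all genes, among them the repressors Snai2 (0.369 and 6.55e-05) and Snai1 (0.368 and 0.0260). The other, Ets1 (0.747 and 0.368), came within 2-fold with dividing cells left out. The neuronal cytoskeleton genes Dcx (0.00230 and 0.232) and Map2 (0.0772 and 5.91) were lower in XN4. The receptor Pdgfra, used by connective tissue and by oligodendrocyte precursors, was higher at 1.64 and 0.287.

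Saa3 and Ckb were chosen after their values were seen. Saa3, an acute phase protein, was at 2.82 in XN4 and 0.0728 in XN1 and was read in 25.5% of XN4 cells. Ckb, the brain creatine kinase, was at 0.191 and 32.6, and was read in 15% of XN4 and 99.7% of XN1 cells. The 1312 XN4 cells with a Ckb read had a median of 19201 reads, against 11677 in the other XN4 cells. Col3a1 was read in 99.3% of those 1312 cells.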
